A study of Mus musculus with 3 samples.

Results

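The complement and acute phase genes comprised 33 genes, 20 of the complement system and 13 acute phase genes, chosen as a list of named genes. All 33 had a probe, 43 probes in all, and each gene was represented by its brightest probe among 22905 named genes on the array. RNA came from Hepa1c1c7, a mouse hepatoma cell line, transfected with pCMV6KN as empty vector, with Mst1r vector (a receptor tyrosine kinase) or with Slpi vector (a secreted inhibitor of serine proteases), and collected a day later. Each of the 3 groups was 1 array, so a group cannot be told apart from its place on the slide, no difference between groups could be tested and none has a replicate check.

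Complement is a cascade of plasma proteins, made mainly by hepatocytes, in which the classical and lectin pathways (C1r, C1s, mannose-binding lectins and their MASP proteases, C4 and C2) and the alternative pathway (factors B and D) lead to cleavage of C3 and then to a membrane pore formed from C5 to C9. Factor I, C4b-binding protein and C1 inhibitor restrain it. Acute phase proteins such as serum amyloid A, haptoglobin and C-reactive protein are secreted by hepatocytes in inflammation, mostly under IL-6 acting through STAT3 and C/EBP factors, together with IL-1 and NF-kB.

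The 3 arrays were alike in overall signal, with 46.7% to 48.5% of probes well above background and a 75th percentile of the processed signal between 229 and 268. The probe of Mst1r gave 4.15, 4.08 and 3.70 with empty, Mst1r and Slpi vector and was not above background on any array. The brighter of the 2 Slpi probes gave 6459, 3843 and 6680, so that neither transfected gene was higher on the array labelled with its vector beyond the spot error. Whether these probes lie in the sequence carried by the vectors was not tested, and every direction given here rests on the labels. Among the hepatocyte markers Alb, Afp, Krt8 and Krt18 were well above background on all 3 arrays, whereas Apob and Hnf4a were on none, Ttr was on both vector arrays and Apoa1 on the Slpi vector array. Of the macrophage and Kupffer cell markers 2 of 6 were on all 3 arrays, with Ptprc, Adgre1 and Clec4f on none, as were 2 of 4 endothelial, 4 of 4 stellate cell and 3 of 4 cholangiocyte markers. The summed signal of the cholangiocyte markers, without scaling, was 13822, 8630 and 13773. Most of it came from Krt7, at 13189, 7963 and 13233, a scaled log2 difference of -0.50 ± 0.13 with Mst1r vector. With that vector Sox9 differed by 0.37 ± 0.14 and Krt19 by -0.66 ± 0.53, and Epcam was on no array. The summed signals were 3240 to 3699 for macrophage, 68.5 to 92.2 for endothelial and 6406 to 7388 for stellate cell markers, and their part in the results was not tested. Within the stellate cell list Des (desmin) gave 227, 37.9 and 58.2, a log2 difference of -2.35 ± 0.42 with Mst1r vector and -1.89 ± 0.42 with Slpi vector. Its only probe lay in row 55, in the upper rows whose stray signal is described below, and the part of stray signal was not tested. The other genes of that list, Col1a1, Col3a1 and Pdgfrb, differed by 0.27 ± 0.13, 0.42 ± 0.42 and 0.07 ± 0.14 with Mst1r vector. With Slpi vector they differed by -0.11 ± 0.13, -0.49 ± 0.53 and 0.07 ± 0.14. The RNA was bulk RNA of a hepatoma cell line, so a marker signal is no measure of how many cells of that type were present. Fewer cells expressing a marker and less RNA per cell cannot be told apart.

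These cells expressed part of the list. Of the 33 genes 13 were well above background on all 3 arrays, which is 39.4%, against 54.4% of all named genes. They were 9 of the 20 complement genes (C1ra, C1s1, C2, C4b, Masp2, C3, Cfb, C8g and Cfi) and 4 of the 13 acute phase genes (Saa1, Saa3, Lcn2 and Lbp). The signals of 15 genes were not above background on any array and lay between 3.26 and 18.8, where the lowest probe well above background was at 16.6 to 18.9. These 15 were Masp1, Mbl1, Cfd, C8a, C8b, C9, Serping1, C4bp, Saa2, Saa4, Orm1, Orm2, Serpina3n, Apcs and Hamp. The other 5 (Mbl2, Hc, C6, Hp and Crp) were measured on 1 or 2 arrays. A probe has its own binding strength, so the levels are compared between arrays for one gene and not between genes.

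**Figure D1:**
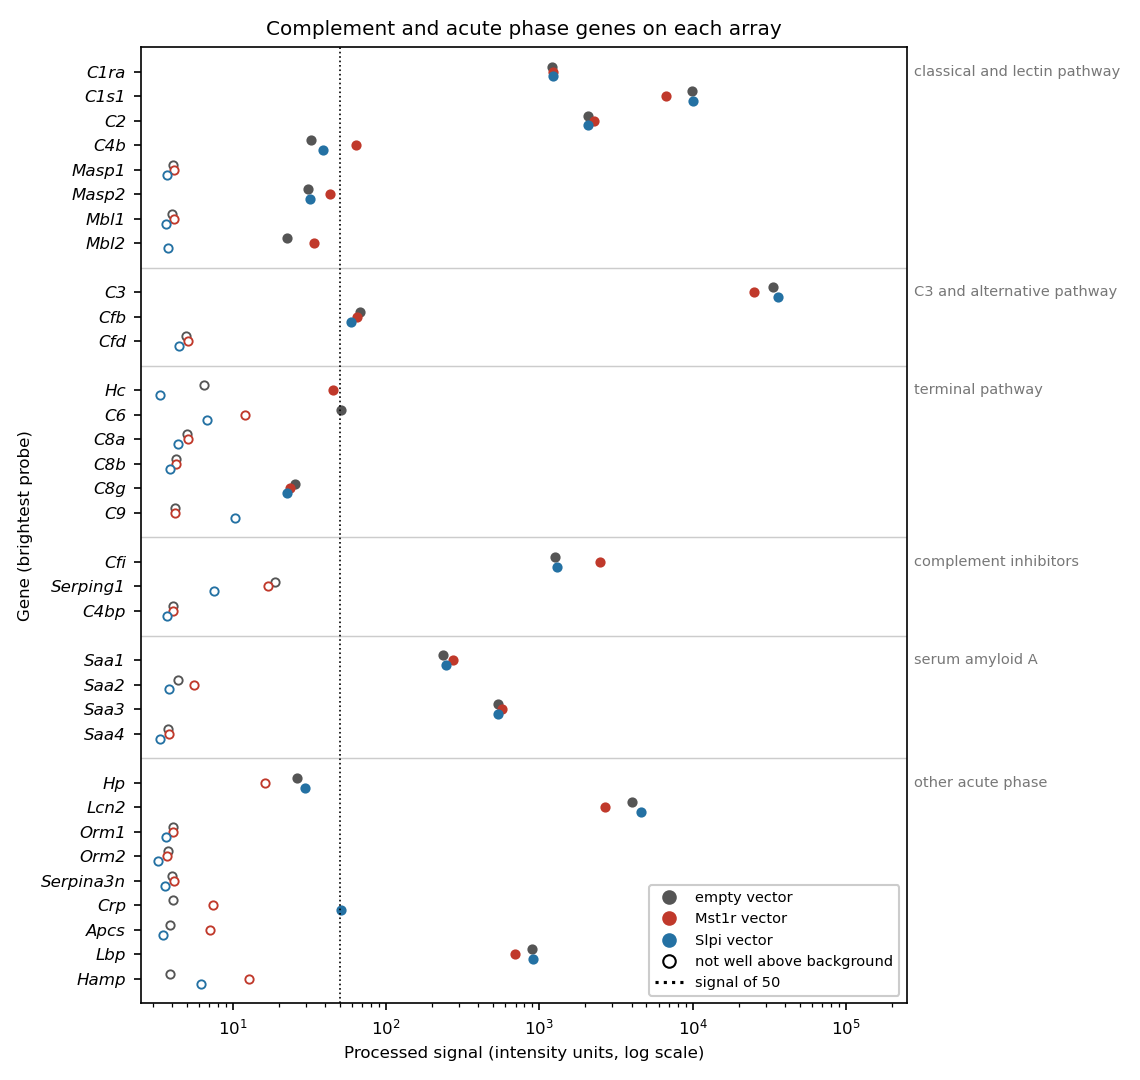
Processed signal (intensity units, log axis) of the brightest probe of each of the 33 genes on the empty vector, Mst1r vector and Slpi vector arrays, 1 array each, grouped by role. Filled points were well above background and open points were not, the dotted line marks a signal of 50, and 13 genes have 3 filled points.

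The serum amyloid A genes, which encode apolipoproteins of the acute phase and lie in one cluster, were split in these cells. The Saa1 probe gave signals of 235, 272 and 246 with empty, Mst1r and Slpi vector, and the Saa3 probe gave 541, 571 and 539. The Saa2 probe gave 4.41, 5.55 and 3.84 and that of Saa4, the constitutive family member of liver, gave 3.76, 3.80 and 3.33. Saa1 and Saa3 were thus measured on each array and Saa2 and Saa4 on none. The upstream sequences are shown for these reasons: those of Saa1 and Saa2 are the pair whose probes differed in detection, and that of Saa3 belongs to the third gene of the cluster with a match described next. The 250 bases before the start of Saa1 (minus strand, chr7:46742981-46743230) and Saa2 (plus strand, chr7:46751583-46751832) were identical at 238 of 249 aligned bases, or 95.6%. That of Saa3 lies on the minus strand (chr7:46715677-46715926). Sequences are from RefSeq, build GRCm38.p6, written 5′ to 3′, with matches to TTGCNNAA (a C/EBP core, on either strand) and, in Saa3, to an interferon response element core in capitals.

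Saa1: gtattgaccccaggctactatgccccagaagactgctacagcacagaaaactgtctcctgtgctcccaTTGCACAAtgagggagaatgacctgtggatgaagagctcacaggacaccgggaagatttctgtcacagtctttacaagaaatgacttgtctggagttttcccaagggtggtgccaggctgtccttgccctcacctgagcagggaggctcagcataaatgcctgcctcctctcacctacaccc

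Saa2: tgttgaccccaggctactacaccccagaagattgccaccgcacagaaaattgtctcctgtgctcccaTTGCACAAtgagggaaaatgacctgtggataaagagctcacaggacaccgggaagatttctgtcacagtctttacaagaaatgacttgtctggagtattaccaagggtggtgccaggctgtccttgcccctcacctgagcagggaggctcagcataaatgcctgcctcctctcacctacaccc

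Saa3: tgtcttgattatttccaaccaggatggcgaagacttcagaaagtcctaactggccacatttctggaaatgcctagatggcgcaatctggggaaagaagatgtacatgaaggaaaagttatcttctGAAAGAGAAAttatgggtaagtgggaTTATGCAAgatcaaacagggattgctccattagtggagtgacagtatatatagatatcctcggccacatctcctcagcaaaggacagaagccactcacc

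The transcripts of Saa1 and Saa2 are closely related, and the probe sequences were not used here, so how far the Saa1 probe also reads Saa2 was not tested. A RefSeq upstream sequence was at hand for 24 of the 33 genes. TTGCNNAA was found in 9 of the 24 (37.5%), namely C1s1 (in 1 of its upstream sequences), C3, C9, Lcn2, Orm2 and all 4 Saa genes, against 9.56% of 32851 mouse upstream sequences of the same length. The 24 were counted by gene, with a match in any of its sequences, and the 32851 by sequence. Saa1 and Saa2 carry the same match in near-identical sequences, so they are no separate occurrences. TTGCNNAA was in 5 of the 8 genes with an upstream sequence that were measured on all arrays, and in 4 of the 16 others. TTCNNNGAA, a STAT core, was found in 4 of 24 (Apcs, C8a, Hamp and Masp2; 7.02% of all), an interferon response element core in 2 (Saa3 and Saa4; 2.98%) and an NF-kB core in 1 (Serpina3n; 1.41%), each searched on both strands. Among the genes measured on all arrays, the C/EBP match of C3 ended nearest to the start, 38 bases before it, followed by Saa3 at 92 bases, and the C3 sequence is shown for that reason. It lies on the minus strand (chr17:57228137-57228386).

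C3: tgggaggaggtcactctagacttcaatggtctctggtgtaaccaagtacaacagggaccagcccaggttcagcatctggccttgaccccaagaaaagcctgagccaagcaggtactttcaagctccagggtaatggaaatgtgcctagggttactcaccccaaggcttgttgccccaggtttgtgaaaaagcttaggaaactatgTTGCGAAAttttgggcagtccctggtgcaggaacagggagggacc

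With Mst1r vector, the gene that stood farthest from its technical error was Cfi, which encodes factor I, the protease that inactivates C3b and C4b. Its signals were 1272 (empty vector), 2492 (Mst1r vector) and 1309 (Slpi vector), in the order used throughout, so the Mst1r vector array was high and the other two were alike. After each array was scaled to its 75th percentile, the log2 difference from empty vector was 1.20 ± 0.12 (2.30-fold). The error is that of a difference and combines, for both arrays, the SD between spots of repeatedly printed probes of like signal. It is pooled over such probes, not measured for each gene, and covers no variation between cultures. Of 2044 features within 0.5 (log2) of the mean level of Cfi, 10 (0.489%) were at least as far up. Without scaling the difference was 0.97, just under 2-fold. The only Cfi probe lay in row 98. Here the upper rows are a block at one end of the array, with 11 of the 33 genes, and the lower rows are the rest, with 22. In the upper rows, where Cfi lay, some control spots without target carried stray signal, up to 289 on the Mst1r vector array, and the part of stray signal in the value of Cfi was not tested.

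Changed genes were counted as those with a 2-fold or larger difference in scaled signal and, on whichever array was brighter, a processed signal above 50. With Mst1r vector 2 of the 33 genes were higher (Cfi and C4b), against 1.7% of all 45608 features, and 1 was lower (C6), against 1.33%. Among features well above background on both arrays, 2 of 14 genes of the list were higher, against 2.31%, and 0 were lower, against 0.857%. At 10-fold, the limit of the gene selection in the study, 0 of the 33 were higher, against 0.618%, and 0 lower, against 0.673%. The median log2 difference of the 10 genes with a mean signal over 50 was 0.19, against -0.04 for all 16589 such features. Without scaling both were lower by the same amount, at -0.036 and -0.27. Over the 6 such genes with a probe in the lower rows the median was -0.16, against -0.04 for all 11787 such features there. The 15 genes not above background on any array showed what scaling adds: their median was 0.25 after scaling and 0.02 without it.

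In the classical and lectin pathways, C4b (complement C4) gave signals of 32.4, 64.0 and 38.8, a log2 difference of 1.21 ± 0.42 for Mst1r vector. Its first probe lay in row 115, and of 2697 features of like level 5.82% were at least as far up. A second C4b probe in row 145 gave 18.6, 25.4 and 14.1, and passed the background limit on the Mst1r vector array alone. The difference was 0.95 with the mean of detected probes, under 2-fold, and under normexp background correction it was 0.51. Masp2, a protease that cleaves C4 and C2, gave 30.9, 42.8 and 31.8 with its brightest probe, a difference of 0.70 ± 0.53. The other Masp2 probes were not above background on any array. The probe in row 171 gave 11.9, 10.7 and 10.9, and that in row 56 gave 4.33, 14.8 and 4.34.

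C2, the protease subunit of the classical C3 convertase, gave 2088, 2260 and 2081 and differed by 0.34 ± 0.12 with Mst1r vector, and by 0.11 without scaling. C1ra and C1s1, which encode the neighbouring proteases of the C1 complex, went apart. C1ra gave 1214, 1221 and 1230, nearly equal signals whose scaled difference of 0.24 ± 0.12 became 0.01 without scaling. C1s1 gave 9980, 6707 and 10008, low on the Mst1r vector array, with a difference of -0.34 ± 0.13 after scaling and -0.57 without it. The probe of C1s2, a close copy of C1s1, gave 11840, 8277 and 11058 and differed by -0.29 ± 0.13, and the 2 probes may share targets. C1ra and C4b also have close copies in the mouse genome (C1rb and C4a), and how far their probes read these was not tested. Mbl2, a mannose-binding lectin, lay in row 15 and gave 22.6, 33.6 and 3.79, with a difference of 0.80 ± 0.53 for Mst1r vector. Masp1 and Mbl1 were between 3.65 and 4.13 on every array.

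C3, the component on which all pathways converge, had 2 probes that went the same way. The first gave 33606, 25183 and 35876, and the second gave 12033, 8385 and 14414. The Mst1r vector array was the lowest and the Slpi vector array the highest for both. The log2 differences with Mst1r vector were -0.19 ± 0.08 and -0.29 ± 0.13. Cfb, factor B of the alternative pathway and a neighbour of C2, gave 67.8, 64.1 and 59.2, a difference of 0.15 ± 0.27, within its error. Its second probe and both probes of Cfd (factor D) were not above background.

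The terminal pathway was mostly not measured. C8g, the gamma chain of C8, gave 25.6, 23.5 and 22.7, alike on the 3 arrays (0.10 ± 0.53 with Mst1r vector), while C8a, C8b and C9 were on none. The 2 probes of C8b were between 3.66 and 4.24. Hc, the gene of complement C5, gave 6.45, 45.2 and 3.36, higher by at least 2.80-fold on the Mst1r vector array than with empty vector, a bound against the detection limit. C6 gave 50.4, 11.99 and 6.77, lower by at least 2.28-fold on the Mst1r vector array. Of 3688 features of the level of C6, 9.41% were at least as far. Hc and C6 lay in rows 21 and 106 with their single bright spots at 45.2 and 50.4. Of the control spots without target in the upper rows, 4.01% with Mst1r vector and 2.68% with empty vector were over 50, against 0.116% and 0 in the lower rows. The part of stray signal in these 2 differences was not tested. Of the inhibitors besides Cfi, Serping1 (C1 inhibitor) gave 18.8, 16.8 and 7.49 and C4bp gave 4.06, 4.08 and 3.71, none well above background.

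Among the acute phase genes no member measured on both arrays passed 2-fold with Mst1r vector. Lcn2, the iron siderophore-binding lipocalin, was lowest on the Mst1r vector array with both of its probes, at 4049, 2685 and 4578 for the first and 858, 602 and 943 for the second. The log2 differences were -0.36 ± 0.12 and -0.28 ± 0.14, and that of the first probe was -0.59 without scaling. Lbp, which binds bacterial lipopolysaccharide, gave 893, 696 and 915 and differed by -0.13 ± 0.14, and by -0.36 without scaling. Saa1 and Saa3 differed by 0.44 ± 0.22 and 0.31 ± 0.14, and by 0.21 and 0.08 without scaling. The only Saa1 probe lay in row 90, in the upper rows, and the part of stray signal in its value was not tested. Hp (haptoglobin, which binds free haemoglobin) gave 26.4, 16.2 and 29.5, lower by at least 1.19-fold on the Mst1r vector array. The genes with a C/EBP match upstream therefore lay on both sides, with Saa1 and Saa3 higher and C3, C1s1 and Lcn2 lower.

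Hamp, which encodes the iron hormone hepcidin, gave 3.87, 12.8 and 6.23, and Apcs (serum amyloid P) gave 3.90, 7.08 and 3.49, none above background, so no fold is given. Orm1 and Orm2 (orosomucoids) and Serpina3n (a serine protease inhibitor) were between 3.26 and 4.13 on every array.

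**Figure D2:**
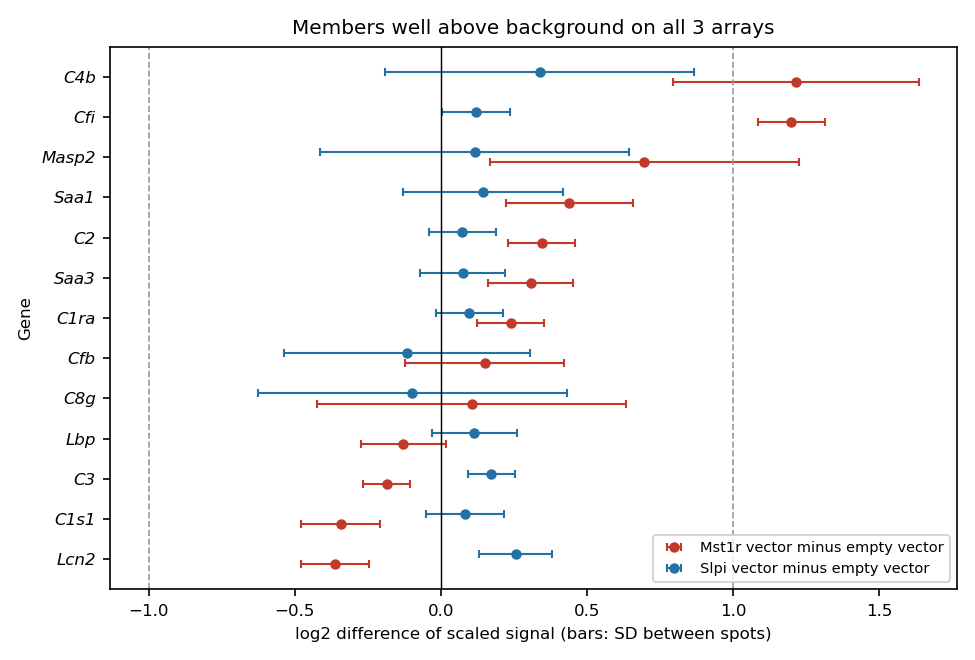
log2 difference of scaled signal from empty vector for the 13 genes well above background on all 3 arrays, for Mst1r vector and Slpi vector (1 array each). Bars are the spot error of the difference, combined for both arrays from repeatedly printed probes of like signal. Dashed lines mark 2-fold, and only Cfi and C4b pass them, with Mst1r vector.

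With Slpi vector, the 13 genes measured on all arrays had log2 differences from empty vector between -0.12 (Cfb) and 0.34 (C4b, 0.34 ± 0.53). The largest relative to the spot error were those of C3, at 0.17 ± 0.08 with the first probe and 0.34 ± 0.13 with the second, and of Lcn2, at 0.26 ± 0.13 and 0.21 ± 0.14. Cfi was at 0.12 ± 0.12. Spike-in scaling lowered all features alike, to a median of -0.23, and put the first C3 probe at -0.06, Lcn2 at 0.02 and Cfi at -0.12. The median of the 10 genes with a mean signal over 50 was 0.11, against 0.0038 for all such features, and under spike-in scaling it was -0.13, against -0.23 for all such features.

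Of the 33 genes 1 was counted higher with Slpi vector (Crp), against 1.05% of all features, and 1 lower (C6), against 1.25%. Among features well above background on both arrays 0 of 14 were higher and 0 lower, against 0.912% each way. Crp, C-reactive protein, gave 4.09, 7.44 and 50.5 and was at least 2.82-fold higher with Slpi vector than with empty vector. This was also the single gene of the list past 10-fold by its measured signals (13.0-fold, from a signal with empty vector that was not above background), against 0.513% of all features, while 0 were lower by 10-fold, against 0.66%. Its only probe lay in row 12, and of 4347 features of like level 3.34% were at least as far. C6 was at least 2.88-fold lower, and its value of 50.4 with empty vector is the same spot as in the comparison above, since both comparisons share that array. Of 3688 features of the level of C6, 6.40% were at least as far with Slpi vector. Mbl2 was at least 1.29-fold lower (3.79, row 15). In the upper rows of the Slpi vector array 2.82% of the control spots were over 50, the brightest at 481, against 0.0578% in the lower rows. The part of stray signal in the values of Crp and C6 was not tested. The called probes of Cfi, C4b, C6 and Crp all lay in the upper rows, so the lower rows, where 24 of the 33 genes had a probe, hold 0 counted genes, against 0.866% of all features there with Mst1r vector and 0.244% with Slpi vector.

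**Figure D3:**
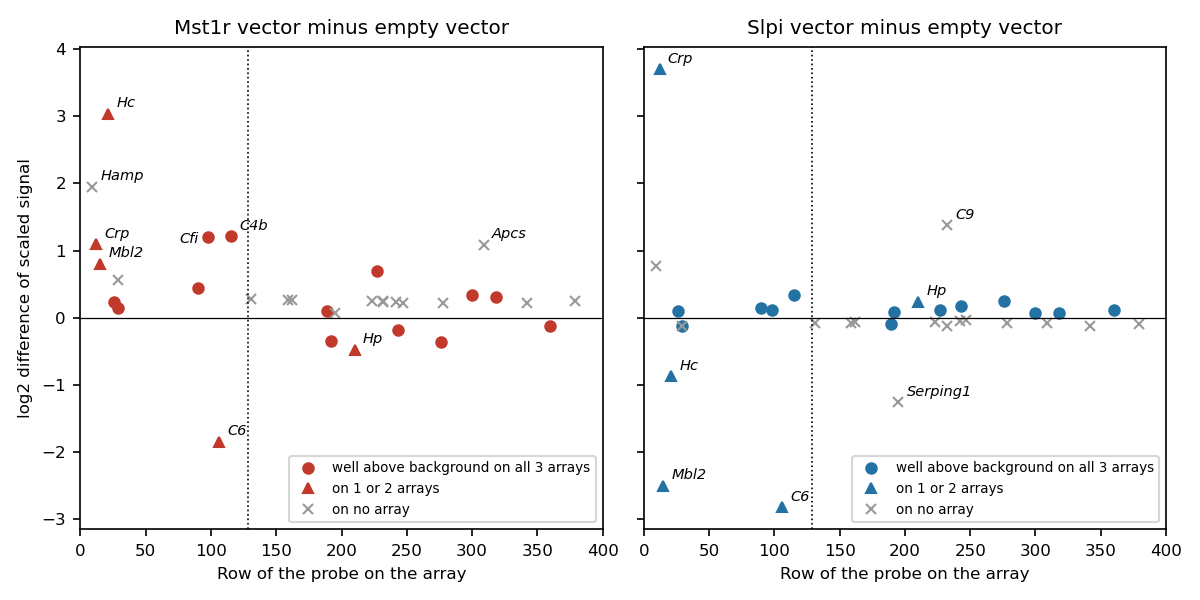
log2 difference of scaled signal from empty vector against the array row of the probe for the 33 genes, Mst1r vector on the left and Slpi vector on the right, 1 array each. The dotted line divides the upper from the lower rows, and 4 of the 5 genes measured on only 1 or 2 arrays lie in the upper rows, while genes measured on all 3 arrays lie on both sides.

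Mst1r vector was also set directly against Slpi vector, a comparison without the empty vector array. Both arrays were already used above, so Cfi and Crp rest on the same spots and are no independent check. Cfi was higher with Mst1r vector by 1.08 ± 0.12 (2.11-fold), and was the 1 gene counted higher, against 1.6% of all features. This difference was 0.93 without scaling and 0.95 under median scaling, just under 2-fold. Crp was the 1 gene counted lower, by at least 2.42-fold, against 1.04%. Of 4347 features of the level of Crp, 6.56% were at least as far. Among features well above background on both arrays 1 of 13 was higher, against 2.28%, and 0 were lower, against 0.733%. At 10-fold 0 were higher, against 0.59%, and 0 lower, against 0.561%. Lcn2 was lower by 0.62 ± 0.13 with its first probe and 0.50 ± 0.14 with its second. C3 was lower by 0.36 ± 0.08 and 0.63 ± 0.13 with its 2 probes, and C1s1 by 0.43 ± 0.13. C4b was higher by 0.87 ± 0.42. The signs for C3 (first probe), C1s1, Lcn2 (first probe), Cfi and C4b were the same under each scaling tried.

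The signalling genes upstream of the acute phase response were described next, from lists of genes for IL-6 and for IL-1 and TNF. Of 21 genes from the IL-6 family to STAT3, 19 were well above background on all arrays. With Mst1r vector 3 were counted higher and 0 lower, against 1.7% and 1.33% of all features. With Slpi vector 0 were counted either way, against 1.05% and 1.25%. In lists as short as this and those below, a count of 0 or 1 says little about the list. Il6 itself gave 114, 543 and 101 (2.48 ± 0.22), and its second probe gave 57.1, 301 and 48.8 (2.63 ± 0.39). Socs3, a feedback inhibitor of STAT3 signalling, gave 2267, 6543 and 2147 (1.76 ± 0.13). Cebpd, a C/EBP factor of the acute phase response, gave 878, 2646 and 787 (1.82 ± 0.13). The Mst1r vector array was high and the other two were alike for each of the 3 genes, and the first probes lay in rows 286, 155 and 196.

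The other bright genes of the IL-6 list moved less with Mst1r vector, Cebpb by 0.10 ± 0.13, Junb by 0.42 ± 0.13 and Bcl3 by -0.10 ± 0.12. The list medians for Mst1r and Slpi vector were 0.17 and 0.04, over the 19 genes measured on all arrays, against -0.03 and 3.0e-05 for all features measured so. Of 17 genes from IL-1 and TNF to NF-kB, 1 was counted higher with Mst1r vector (against 1.7% of all features) and 0 lower (1.33%). On the Slpi vector array 0 were counted either way (1.05% and 1.25%). The gene counted higher was Tnf, at 178, 312 and 200 (1.04 ± 0.22), whose second probe was at background. The first Tnf probe lay in row 77, in the upper rows, and the second in row 296. The part of stray signal in the value of Tnf was not tested. Ccl2 differed by -0.08 ± 0.08, Rela by 0.24 ± 0.13, Nfkb2 by -0.21 ± 0.13 and Tnfrsf1a by 0.06 ± 0.13 with Mst1r vector.

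Of 31 further complement components, regulators and receptors 16 were measured on all arrays. Among the 31, 0 were counted as changed, against 3.03% (Mst1r vector) and 2.3% (Slpi vector) of all features. The brightest were Clu (clusterin, -0.18 ± 0.08 with Mst1r vector), C1s2, Cr1l (0.15 ± 0.12) and Itgam (0.34 ± 0.12). Among the 16 genes, 9 were higher with Mst1r vector than with empty vector. Colec11 was farthest up, at 19.8, 47.0 and 22.6 (1.47 ± 0.53, or 2.78-fold). It passed 2-fold but was not counted, because 47.0 lay under the minimum signal of the count. C1rb was farthest down (-0.35 ± 0.27). Of 21 further proteins raised in inflammation 11 were measured on all arrays. In this list 1 gene was counted higher and 1 lower with each vector. The shares of all features were 1.7% and 1.33% with Mst1r vector and 1.05% and 1.25% with Slpi vector. With Mst1r vector Hpx (haemopexin, which binds haem) was counted higher, at 39.0, 76.5 and 41.8 (1.20 ± 0.42), and Steap4, a metalloreductase, was counted lower, at 75.5, 27.0 and 68.2 (-1.25 ± 0.42). The only Steap4 probe lay in row 82, in the upper rows, and the part of stray signal in its value was not tested. Cp (ceruloplasmin, the copper carrier) was lower without passing 2-fold, at 6166, 3158 and 6308 (-0.74 ± 0.13). Mt1 and Mt2 (metallothioneins) and Fgl1 differed by -0.09 ± 0.08, -0.01 ± 0.13 and 0.62 ± 0.22.

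With Slpi vector the gene counted higher in that list was Itih4, an inter-alpha-trypsin inhibitor chain, at 23.5, 21.3 and 161 (2.85 ± 0.42). Its probe lay in row 281, and a second Itih4 probe in row 286 gave 3.85, 3.85 and 4.49, so the probes disagreed. Serpina1c, an alpha-1-antitrypsin gene with near-identical copies, was counted lower, at 62.1, 29.4 and 14.98, with its probe in row 35. Of 12 plasma proteins lowered in inflammation 6 were measured on all arrays. In that list 0 were counted as changed, against 3.03% (Mst1r vector) and 2.3% (Slpi vector) of all features. Alb (albumin) was higher with Mst1r vector, at 5083, 6449 and 4966 (0.57 ± 0.13), while Trf (transferrin), Rbp4 and Apoa2 differed by -0.21 ± 0.08, -0.17 ± 0.08 and -0.03 ± 0.12.

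The 14 genes listed for hepcidin regulation all had a probe, and 9 were measured on all arrays. Here 0 were counted as changed, against 3.03% (Mst1r vector) and 2.3% (Slpi vector) of all features. The bright members Id1, Smad1, Smad4 and Smad5 differed by -0.17 ± 0.13, -0.17 ± 0.12, 0.04 ± 0.13 and -0.06 ± 0.12 with Mst1r vector. Il6, Socs3 and Cebpd were 5.59-, 3.39- and 3.54-fold higher with Mst1r vector than with empty vector. Of the 4 acute phase genes of the main list measured on all arrays, Saa1 was farthest up (1.36-fold) and Lcn2 farthest down (1.29-fold). Of the 11 measured so in the further list of proteins raised in inflammation, Hpx was farthest up (2.30-fold) and Steap4 farthest down (2.38-fold). These genes were read on the same 3 arrays, and no relation between them was tested. The probes of Saa1 and Steap4 lay in the upper rows.

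**Figure D4:**
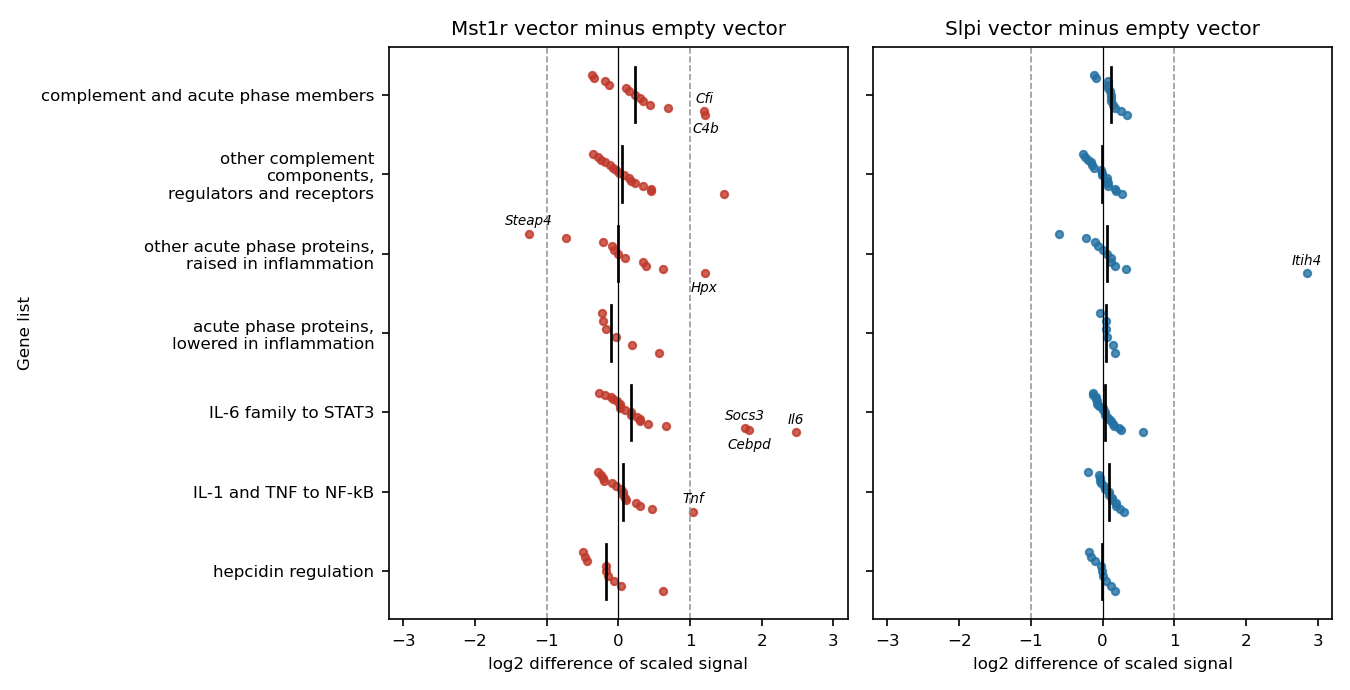
log2 difference of scaled signal from empty vector for genes well above background on all 3 arrays, by gene list, Mst1r vector on the left and Slpi vector on the right (1 array each). Points are genes, black bars are list medians, dashed lines mark 2-fold, and the genes counted as changed are named: Il6, Socs3 and Cebpd lie far to the right with Mst1r vector and Itih4 with Slpi vector.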

How the data were processed

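Total RNA of 3 transfected Hepa1c1c7 cultures was hybridised to single-colour Agilent SurePrint G3 Mouse arrays (62976 spots). The authors deposited spot intensity values; per the file headers these came from Feature Extraction 12.0.3.1, also named in the submitters' processing notes, with an mm9 array design. The processed signal is background-subtracted, spatially detrended and not scaled between arrays. Deposited flags (other values of 0 or 1) mark detection and outliers. A deposited series-wide table repeats this processed intensity (99.94% to 99.95% of values within 0.01 log2). No spot was saturated.

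Here log2 signals were averaged per probe without outlier spots and the 75th percentile over 56605 probes was subtracted, as in the methods. Accessions were matched without version to RefSeq genes (GRCm38.p6, names only), 25126 of 47837. Each gene was represented by its brightest probe. The error of a difference combines, for both arrays, the SD between spots of probes printed at least 10 times, by signal level. For a bound, the dim side was raised to the array's lowest signal well above background where it lay under that. The number of arrays limits the precision, and all p-values were left out because each group was 1 array. Calls and scaling were tested on simulated data. Members, lists and motifs were chosen with earlier results of these data known. Every member is named, with called genes and the 4 brightest of each other list, and also Colec11 and C1rb. normexp (limma 3.58.1) used median spot intensities. Python 3.11.15 and pandas 2.3.3 were used. Protein sequences were not used here, and 1 marker gene is not reported here.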

Additional observations from a re-analysis of the deposited data

Results flagged for a closer look

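A signal appeared on a probe that the comparisons did not use. The second C4b probe (row 145) was at 25.4 on the Mst1r vector array, where it was well above background, against 18.6 on the empty vector array, where it was not.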

How the results depend on the processing

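No paired analysis was possible because each group was 1 array. Across the alternatives to the counts and medians, 41 values stayed within their limits, 21 moved and 4 turned in sign; of the single-gene differences 333 moved by less than the spot error, 58 by more, and 0 called ones turned in sign. The 3 genes counted as changed with Mst1r vector against empty vector (3.03% of all features) became 1 without scaling (C6; 3.01%), 1 under normexp (Cfi; 1.46%), 0 at 10-fold (1.29%), 0 with probes in the lower rows (0.866%) and 7 with no minimum signal (10.7%). The mean of detected probes left out C4b (0.95), and asking for both arrays well above background left out C6. The 2 with Slpi vector (2.3%) became 0 under normexp (1.12%), 0 with probes in the lower rows (0.244%), 0 when both arrays had to be well above background, 1 at 10-fold (1.17%) and 5 with no minimum signal (9.81%). The 2 between Mst1r vector and Slpi vector (2.65%) became 1 without scaling (2.57%), 1 under median scaling (2.57%), 1 when both arrays had to be well above background, 0 under normexp (1.3%), 0 with probes in the lower rows (0.808%), 0 at 10-fold (1.15%) and 8 with no minimum signal (9.66%). The median log2 difference with Mst1r vector (0.19) was -0.036 without scaling and -0.16 over 6 genes with probes in the lower rows, and that with Slpi vector (0.11) was 0.27 under median and -0.13 under spike-in scaling. Between both vectors the median (0.19) was 0.035 without scaling, 0.055 under median scaling, 0.32 under spike-in scaling and -0.30 with probes in the lower rows. Normexp adds an offset of 50, which shrinks differences of dim spots, and the row limit drops every called probe; other causes were not tested. A change of scaling shifts all features alike, so a sign that turned with it is no change of the list against other features. It moved the median of all features over a signal of 50 with Mst1r vector from -0.04 to -0.27 (none) and with Slpi vector from 0.0038 to 0.17 (median) and -0.23 (spike-in). Genes with signals near 19 or below have only a bound.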
